A study of Danio rerio with 50 samples.

Results

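The hydroxysteroid 17-beta dehydrogenases are enzymes named for moving hydrogen at carbon 17 of the steroid skeleton, and they were followed here in the liver of adult male zebrafish given estradiol. Every array probe whose gene symbol, current or older, starts with hsd17b was taken, which gave 14 probes of 10 genes out of 23232 probes in all. Of the 11 genes of that name in the RefSeq gene table, hsd17b7 was matched by no probe and is not analysed here. The genes measured were hsd17b1, hsd17b2, hsd17b3, hsd17b4, hsd17b8, hsd17b10 with 2 probes, hsd17b12a, hsd17b12b with 2 probes, hsd17b14 with 3 probes, and rdh5, whose older symbol is hsd17b9. The probes for hsd17b8, hsd17b10, hsd17b14 and rdh5 carry other names in the array's own annotation and were matched through synonyms. The gene hsd17b3 was singled out with its early fall in these data already known, so its difference from the controls is given as a description.

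The study measured liver RNA on 50 two-colour arrays, 35 from estradiol-treated and 15 from untreated males. Exposure was to estradiol, the main natural estrogen, at 0.5, 5 or 50 µg/L and lasted 24 or 96 h. The 24 h groups held 8 untreated samples and 6 at each dose. At 96 h there were 7 untreated samples, then 6, 4 and 7 samples at the rising doses. The descriptions of the 5 µg/L samples at 96 h count 6 replicates, while 4 samples are given. The labels give no strain, age in months or genotype for these fish, and no vehicle for the untreated ones. The titles of all 7 samples at 50 µg/L and the later time say 96 h, while some of their descriptions say 97 h. Each fish sample was labelled with Cy5 and set against a Cy3-labelled reference, a pool of wild-type liver RNA in which both sexes were mixed in equal parts. Every value below is therefore a log2 ratio, in which 0 means as bright as the mixed-sex pool. A change is the difference of 2 group means of that ratio.

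In vertebrates the family divides by substrate rather than by name. Some members set the activity of sex steroids by reducing or oxidising the 17-position, so they can make or remove testosterone and estradiol within a tissue. Others act on the acyl chains of lipids, in peroxisomes, mitochondria or the endoplasmic reticulum, and are named for a steroid activity seen in the test tube. The liver is a main site of both steroid inactivation and fatty acid metabolism. In egg-laying vertebrates estrogen also drives the liver to make the yolk protein precursor vitellogenin.

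Some arrays stood apart. Calls of members that ended without them are given with and without them. Counts of the pathway lists at 50 µg/L are given with and without the low-signal arrays, described next. The list counts at 0.5 µg/L and 24 h include the array with high ovary markers. On 5 arrays of the 50 µg/L groups, 3 at 24 h and 2 at 96 h, fewer than 60% of the Cy5 spots were above background. On the treated arrays that share ran from 25.7% to 96.3%, and scanner values of the controls were not analysed here. The array labelled replicate 2 of 0.5 µg/L at 24 h, from a fish labelled male, had a mean log2 ratio of 0.87 over 9 ovary and oocyte marker genes, against -2.54 to -1.16 on the other 49 arrays. On it zp3 and zp3b, egg coat genes, lay at 0.80 and 1.19, and zar1 and buc, oocyte genes, at 1.28 and 1.19. These markers, and also bmp15 (1.21) and gdf9 (0.47), were higher on it than on any other array. The markers cyp19a1a (0.69), fshr (0.48) and lhcgr (0.54) lay within the range of the other arrays. Hepatocyte markers were present throughout, with Cy5 signal above background on 32 to 35 of the 35 treated arrays. Their mean log2 ratio ran from 2.18 to 3.03 in the 24 h controls and from 0.33 to 1.67 at 50 µg/L, and from 2.27 to 3.05 and from 0.64 to 1.60 in the same groups at 96 h. Of 17 hepatocyte markers, 12 fell at 50 µg/L at 24 h and 13 at 96 h, and none rose, against 9 and 13 without the low-signal arrays. In bulk liver RNA, fewer cells of a type and less RNA per cell cannot be told apart. The response to estradiol itself was plain in vtg3, a vitellogenin, which rose at the highest dose by 7.45 ± 0.29 (SE) on the log2 scale at 24 h and by 8.51 ± 0.28 at 96 h, and without the low-signal arrays by 7.08 ± 0.36 and 8.50 ± 0.31.

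The members past the threshold included genes that fell and genes that rose. Their counts grew with dose, as did the share of all probes that passed. The falls counted here include that of hsd17b3 in every comparison with controls but 0.5 µg/L at 24 h, and its part in them was known when it was chosen. The test was limma, a linear model fitted to all 22046 tested probes, with a threshold of an adjusted p under 0.05. At 0.5 µg/L and 24 h none of the 14 probes passed, where 0.503% of all probes did. Before adjustment 4 of the 14 had a p under 0.05, a looser threshold for which the share of all probes is not given here. The middle dose gave 2 falls and no rise, where 6.08% of all probes passed. The highest dose brought 4 rises and 3 falls, of 6 genes counted by any of their probes, where 12.8% of all probes passed. By 96 h the lowest dose gave 1 fall, the middle dose 2 rises and 1 fall, and the highest dose 3 rises and 3 falls, of 6 genes. The matching shares of all probes were 3.25%, 12.6% and 18%. Counted only by the probe of each gene that was brightest in the reference channel, 4 of 10 genes passed at 50 µg/L and 24 h. At 96 h 5 of 10 did. Without the 5 low-signal arrays the counts at 50 µg/L were 4 at 24 h, where 8.42% of all probes passed, and 4 at 96 h, where 16.5% did. In that fit the counts at 5 µg/L were 3 at 24 h, where 6.44% of all probes passed, and 3 at 96 h, where 13.1% did.

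**Figure D1:**
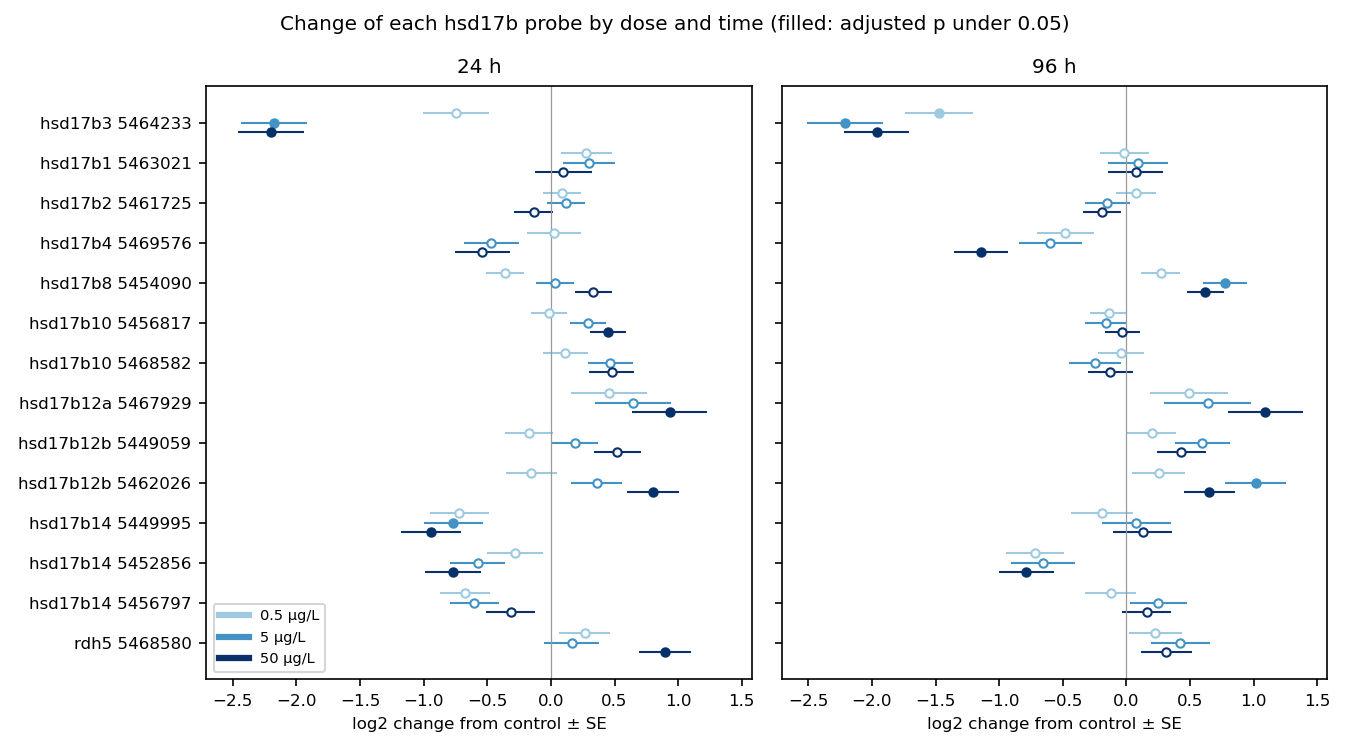
Change in log2 ratio from the controls of the same time (horizontal axis, with bars of 1 SE) for each of the 14 probes, at 24 h (left) and 96 h (right), coloured by dose; filled points have an adjusted p under 0.05. The probe of hsd17b3, a gene chosen with its early fall known, lies between -2.21 and -1.96 at 5 and 50 µg/L. As a description only, that is farther from 0 than any other member.

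In mammals HSD17B3 is the enzyme of the testis that reduces androstenedione to testosterone. In the untreated males its zebrafish counterpart was brighter than the mixed-sex pool on all 15 arrays, with a mean log2 ratio of 1.80 ± 0.61 (SD, n = 15). At 24 h the controls ran from 0.69 through a median of 1.92 to 2.82, and the 0.5 µg/L arrays from 0.29 through 1.19 to 1.88. These groups overlapped, with 1 of the 6 treated arrays below the lowest control. At 5 µg/L the 24 h values ran from -0.54 through -0.26 to -0.15, and at 50 µg/L from -0.69 through -0.47 to 0.29. All 12 of those arrays lay below the lowest control.

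At 96 h the hsd17b3 controls ran from 0.74 through 1.52 to 2.41. The 0.5 µg/L arrays ran from -0.37 through 0.25 to 0.77, and 5 of 6 lay below every control. The 4 arrays of 5 µg/L lay at -0.31, -1.07, -0.62 and -0.05, and the 7 arrays of 50 µg/L ran from -0.84 through -0.30 to 0.54, all below the controls. So every group except 0.5 µg/L at 24 h had most or all of its arrays below the control range. From the highest mean down, the groups came in the order of 24 h controls (1.88 ± 0.64, SD), 96 h controls (1.70 ± 0.61), 0.5 µg/L at 24 h (1.14 ± 0.54), 0.5 µg/L at 96 h (0.23 ± 0.44), 50 µg/L at 96 h (-0.26 ± 0.48), 5 µg/L at 24 h (-0.30 ± 0.14), 50 µg/L at 24 h (-0.32 ± 0.43) and 5 µg/L at 96 h (-0.51 ± 0.44). Neighbours in this order differed by less than the larger of their SDs, apart from 0.5 µg/L at 24 h against 96 h and 0.5 against 50 µg/L at 96 h.

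**Figure D2:**
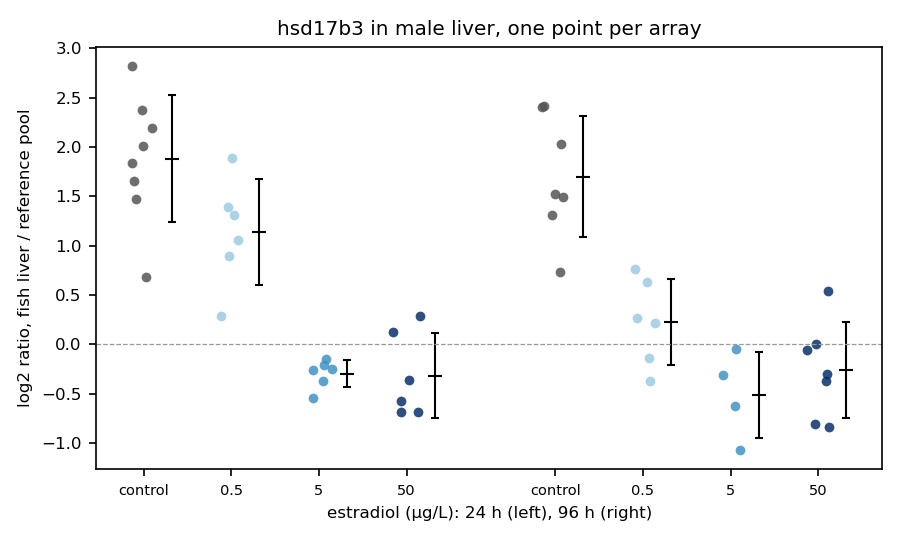
Log2 ratio of fish liver over the reference pool for hsd17b3 on each of the 50 arrays (vertical axis), by estradiol dose in µg/L at 24 h (left) and 96 h (right); horizontal marks are means and bars are 1 SD. All 12 arrays of 5 and 50 µg/L at 24 h lie below the lowest control, while 5 of the 6 arrays of 0.5 µg/L at 24 h lie within the control range.

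The fitted change of hsd17b3 was -0.74 ± 0.26 (SE) at 0.5 µg/L and 24 h, short of the threshold, and -0.57 ± 0.27 without the array that stood apart. At 5 and 50 µg/L the 24 h changes were -2.18 ± 0.26 and -2.20 ± 0.26, which left 22.1% and 21.8% of the control ratio. At 96 h they were -1.47 ± 0.27, -2.21 ± 0.30 and -1.96 ± 0.26 at the rising doses, and 36.1%, 21.6% and 25.7% of the control ratio remained. On the arrays left without the low-signal ones, the changes at 50 µg/L were -1.86 ± 0.33 at 24 h and -1.82 ± 0.28 at 96 h. Signal in Cy5 was above background for this probe on 30 of the 35 treated arrays, and on 4 of 6 at 50 µg/L and 24 h.

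Between doses, scanner values of the treated arrays gave a difference of 50 from 0.5 µg/L of -1.62 ± 0.26 at 24 h and -0.58 ± 0.25 at 96 h. Without the array with high ovary markers the 24 h difference was -1.79 ± 0.26. Since the gene was singled out for its early fall, these too are given as a description, with no test. The log2 difference of the 0.5 µg/L response between 96 and 24 h was -0.73 ± 0.37 (95% interval -1.48 to 0.02), again as a description. That value includes the array with high ovary markers, and without it the difference was -0.90 ± 0.37. At 5 and 50 µg/L the difference between the times was -0.03 ± 0.40 and 0.24 ± 0.37. The hepatocyte markers moved with these values: 2, 9 and 12 of 17 fell at the rising doses at 24 h, and 6, 13 and 13 at 96 h. The part of that movement in the hsd17b3 values was not tested.

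Of 10 testis and germ cell markers, sycp3, a meiosis gene, rose at 5 and 50 µg/L at 24 h and at every dose at 96 h, by 0.87 to 1.44. The germ cell gene piwil1 rose at 50 µg/L at both times (1.37 ± 0.29 and 0.87 ± 0.29), and nanos3, another germ cell gene, fell at 50 µg/L and 96 h (-0.66 ± 0.20). The markers insl3, of Leydig cells, and ddx4, of germ cells, had changes of -0.15 ± 0.19 and 0.34 ± 0.34 at 50 µg/L and 96 h, neither past the threshold. The mean log2 ratio of this list ran from -0.88 to -0.19 in the 24 h controls, and from -0.45 to 0.69 at 50 µg/L. Without the low-signal arrays 1 of the 10 rose at 50 µg/L and 24 h, against 2 with them. The median change of the list there was -0.07, against 0.36 with them. At 96 h 3 rose and 1 fell without them, against 2 and 1 with them. Of all probes, 7.09% rose at 50 µg/L and 24 h and 9.19% at 96 h, against 4.28% and 7.59% without the low-signal arrays. The share of all probes that fell at 96 h was 8.78%, against 8.89% without those arrays. Among 10 exocrine pancreas markers, 4 rose at 50 µg/L and 96 h and none in the other comparisons, with list means of -3.08 to 0.04 in the 96 h controls and -0.64 to -0.08 at that dose. Leaving out the low-signal arrays left 3 of these rises. The part of either list in the family's results was not tested.

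Next come the other enzymes named for sex steroids. The genes hsd17b1 and hsd17b2 showed no change past the threshold in any comparison. HSD17B1 reduces estrone to estradiol in the human ovary and placenta, and its zebrafish probe was the dimmest of the family, above background on 16 of 35 treated arrays and without a value on 10 of the 50. Its log2 changes ran from -0.02 to 0.30 over the 6 comparisons with controls, and the interval at 50 µg/L and 24 h was -0.36 to 0.55. HSD17B2 in mammals oxidises estradiol and testosterone to their less active keto forms. The zebrafish gene was brighter than the pool on all 15 control arrays, at 0.78 ± 0.34 (SD), and its change at 50 µg/L was -0.14 ± 0.15 (SE; interval -0.44 to 0.17) at 24 h and -0.19 ± 0.15 (interval -0.49 to 0.11) at 96 h. As a description, both hsd17b2 intervals lay above the hsd17b3 changes at that dose.

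Human HSD17B14 oxidises 17-hydroxysteroids in vitro. At 24 h the 3 zebrafish probes named for it all had means below the controls at every dose. At 96 h they parted, and only probe 5452856 had means below the controls at 5 and 50 µg/L. Probe 5452856, the only 1 of the 3 with Cy5 signal above background on all 35 treated arrays, ran in the 24 h controls from -0.53 through 0.06 to 0.29, and at 50 µg/L from -1.23 through -0.88 to -0.13. At 96 h its controls ran from -0.14 through 0.03 to 0.69, and its 50 µg/L arrays from -1.41 through -0.54 to 0.15. The groups overlapped, with 5 of 6 and 6 of 7 treated arrays below the lowest control. It fell at 24 h (-0.77 ± 0.22, limma, adjusted p = 0.0114) and at 96 h (-0.79 ± 0.22, adjusted p = 0.00674). Without the low-signal arrays the changes were -0.55 and -0.55, and neither passed (adjusted p = 0.236 and 0.0942).

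Probe 5449995 of hsd17b14 fell at 24 h, by limma, at 5 µg/L (-0.77 ± 0.24, adjusted p = 0.0373) and at 50 µg/L (-0.94 ± 0.24, adjusted p = 0.00326), and at 96 h its change at 50 µg/L was 0.13 ± 0.23. Cy5 signal of this probe was above background on 23 of 35 treated arrays, and on 3 of 6 at 50 µg/L and 24 h. Its 24 h controls held 2 high arrays, replicates 1 and 2 at 2.03 and 1.74, while the other 6 lay between -0.30 and 0.17. Against the controls of both times pooled, the changes were -0.38 and -0.56, and neither passed (adjusted p = 0.377 and 0.0965). With only the arrays of the contrast they were -0.77 and -0.94, and neither passed (limma, adjusted p = 0.218 and 0.0665). Leaving out control replicate 1 or 2 also ended the call at 5 µg/L, with changes of -0.54 and -0.58, as did leaving out treated replicate 1, 2, 4, 5 or 6, with changes of -0.79 to -0.73. The same 2 control arrays were the highest for probe 5456797, at 1.70 and 1.06, and that probe passed in no comparison of the reported fit. At 5 µg/L and 24 h it passed in some alternatives, at -0.71 to -0.58. These were no centring, quantile normalization, values on all arrays, the replicate block and the fit without low-signal arrays. Against the pooled controls it did not pass, at -0.41 (limma, adjusted p = 0.159). Across the 50 arrays, probes 5449995 and 5456797 correlated at r = 0.64, and probe 5452856 correlated with them at 0.12 and 0.15. These are descriptions over arrays that share dose groups.

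The probe for rdh5, known in mammals as a retinol dehydrogenase of the eye's pigment epithelium, stood for the older symbol hsd17b9. In the 24 h controls it ran from -0.31 through 0.14 to 0.99, and at 50 µg/L from 0.64 through 1.09 to 1.59. The groups overlapped, and 3 of 6 treated arrays lay above the highest control. It rose by 0.90 ± 0.20 (limma, adjusted p = 0.00104), a 1.86-fold difference. At 96 h its change at 50 µg/L was 0.31 ± 0.20 (adjusted p = 0.303), and the difference between the times, -0.58 ± 0.28, did not pass (adjusted p = 0.456). The control means were 0.22 at 24 h and 0.56 at 96 h. Against the controls of both times pooled, rdh5 rose at 50 µg/L at 24 h (0.74 ± 0.18, limma, adjusted p = 0.00254). It also rose against them at 96 h (0.50 ± 0.17, adjusted p = 0.0398). Without the low-signal arrays, which leave 3 at 50 µg/L and 24 h, the change of rdh5 was 0.57 ± 0.24 (adjusted p = 0.165).

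Among the lipid enzymes, hsd17b4 moved farthest down. Its product in mammals is the D-bifunctional protein of peroxisomes, which carries out the hydration and dehydrogenation steps in the beta-oxidation of very long and branched fatty acids. It was brighter than the pool on all 15 control arrays, at 1.57 ± 0.54 (SD). At 96 h the controls ran from 1.09 through 1.92 to 2.64, and the 0.5 µg/L arrays from 0.70 through 1.46 to 2.05. The 4 arrays of 5 µg/L lay at 1.42, 1.79, 1.35 and 0.66, and those of 50 µg/L ran from 0.20 through 0.69 to 1.29. The groups overlapped, with 5 of 7 arrays of 50 µg/L below the lowest control.

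The gene hsd17b4 fell at 50 µg/L and 96 h (-1.14 ± 0.21, limma, adjusted p = 5.3e-05), to 45.3% of the control ratio. With the low-signal arrays left out its change there was -1.31 ± 0.23. At 96 h the changes at 0.5 and 5 µg/L were -0.48 ± 0.22 and -0.60 ± 0.25. The 24 h change at 50 µg/L was -0.54 ± 0.21 (adjusted p = 0.0954), and none of these passed. That 24 h change did pass with quantile normalization, array weights or only the arrays of the contrast, at -0.58 to -0.54. At 24 h 4 of 6 arrays of 5 µg/L, and 4 of 6 of 50 µg/L, lay below the lowest control. The 24 h controls, with a median of 1.33, lay below those of 96 h by 0.62 ± 0.21, which did not pass (adjusted p = 0.143). Against controls of both times pooled, the changes at 50 µg/L were -0.83 at 24 h (adjusted p = 0.00258) and -0.81 at 96 h (adjusted p = 0.00164). At 5 µg/L they were -0.76 at 24 h (adjusted p = 0.011) and -0.27 at 96 h (adjusted p = 0.571). The difference between the times, -0.60 ± 0.30, did not pass (adjusted p = 0.469).

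HSD17B12 is, in mammals, the 3-ketoacyl-CoA reductase of the fatty acid elongation cycle in the endoplasmic reticulum, and zebrafish carry the gene as hsd17b12a and hsd17b12b. Set against the pool, the pair differed in the untreated males. The gene hsd17b12a was dimmer than the pool on all 15 control arrays, at -2.77 ± 0.43 (SD). The gene hsd17b12b was brighter on all 15, at 0.97 ± 0.32 for probe 5449059 and 0.96 ± 0.41 for probe 5462026. The mean of the ovary markers was also below the pool, at -2.54 to -1.16 on 49 of the arrays. A ratio cannot tell a low level in these males from a high level in the pool. Which of these holds for hsd17b12a was not tested. Both paralogues were higher in the fish given 50 µg/L. For hsd17b12a the 24 h controls ran from -3.13 through -2.64 to -1.85, and the 50 µg/L arrays from -2.31 through -1.47 to -1.34. At 96 h the same groups ran from -3.54 through -3.04 to -2.37 and from -2.99 through -1.70 to -1.05. The groups overlapped at both times, and 4 of 6 and 6 of 7 treated arrays lay above the highest control.

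The paralogue hsd17b12a rose by 0.93 ± 0.30 at 24 h (limma, adjusted p = 0.0273) and by 1.09 ± 0.29 at 96 h (adjusted p = 0.00552), so that its ratio stayed below that of the pool. Leaving out the low-signal arrays gave a 24 h change of 0.65 ± 0.38 (adjusted p = 0.373) and a 96 h change of 0.91 ± 0.32 (adjusted p = 0.0471). The 24 h call also ended on leaving out control replicate 4 or 5 or any of replicates 3 to 6 at 50 µg/L, with changes of 0.86 to 0.89. Cy5 signal of hsd17b12a was above background on 24 of 35 treated arrays. On the array with high ovary markers it lay at -0.06, against -3.54 to -0.84 on the other 49. With that array the change at 0.5 µg/L and 24 h was 0.46 ± 0.30, and without it 0.03 ± 0.25. The comparison of 50 with 0.5 µg/L at 24 h likewise went from 0.51 ± 0.37 (adjusted p = 0.532) to 0.97 ± 0.29 (adjusted p = 0.0231) without it. None of the 9 ovary markers passed in any of the 6 comparisons with controls.

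**Figure D3:**
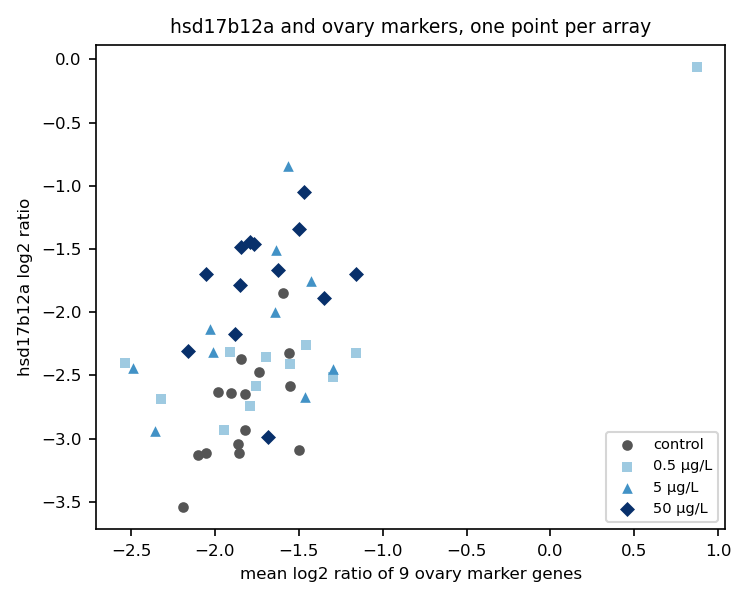
Log2 ratio of hsd17b12a (vertical axis) against the mean log2 ratio of 9 ovary and oocyte marker genes (horizontal axis), 1 point for each of the 50 arrays, with colour and symbol for dose. Replicate 2 of 0.5 µg/L at 24 h lies alone at 0.87 and -0.06, and the other 49 arrays lie between -2.54 and -1.16 on the horizontal axis.

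The gene hsd17b12b rose on probe 5462026. In the 24 h controls it ran from 0.13 through 0.91 to 1.36, and at 50 µg/L from 1.23 through 1.74 to 1.87, where 5 of 6 arrays lay above the highest control. In the 96 h controls it ran from 0.44 through 1.13 to 1.65. The 4 arrays of 5 µg/L lay at 2.53, 2.30, 1.97 and 1.57, of which 3 were above every control, and the 50 µg/L arrays ran from 1.27 through 1.76 to 2.23. Its changes at 5 and 50 µg/L and 96 h were 1.01 ± 0.24 (limma, adjusted p = 0.00177) and 0.65 ± 0.20 (adjusted p = 0.0168), and 0.80 ± 0.20 (adjusted p = 0.00392) at 50 µg/L and 24 h. Without the low-signal arrays the 50 µg/L changes were 0.74 at 24 h and 0.53 at 96 h, and neither passed (adjusted p = 0.068 and 0.105). Leaving out control replicate 2 at 96 h also ended the call there, at 0.55 (adjusted p = 0.0609). The second probe, 5449059, had changes of the same direction at 50 µg/L, 0.52 ± 0.19 at 24 h and 0.43 ± 0.19 at 96 h. These did not pass (adjusted p = 0.055 and 0.118). At 5 µg/L and 96 h 3 of its 4 arrays lay above every control, and it did not pass. With array weights it passed at 5 and 50 µg/L at 96 h (0.62 and 0.55), as with pooled controls (0.74 and 0.58). Its 24 h change at 50 µg/L passed with array weights (0.50) or only the arrays of the contrast (0.52), but not with pooled controls (0.40).

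The gene hsd17b8 rose at 96 h. In mammals its product is a subunit of the 3-ketoacyl reductase of mitochondrial fatty acid synthesis. At 96 h its controls ran from -0.05 through 0.34 to 0.39 and the 0.5 µg/L arrays from 0.33 through 0.47 to 0.68. The 4 arrays of 5 µg/L lay at 1.04, 1.12, 1.22 and 0.59, and the 50 µg/L arrays ran from 0.48 through 0.85 to 1.18. All 4 and all 7 of these lay above the highest control. It rose by 0.78 ± 0.17 at 5 µg/L (limma, adjusted p = 0.000952), a 1.71-fold difference, and by 0.62 ± 0.15 at 50 µg/L (adjusted p = 0.00139), or by 0.63 ± 0.15 without the low-signal arrays. At 24 h the change at 50 µg/L was 0.33 ± 0.15 (adjusted p = 0.144), and the control means were 0.48 at 24 h and 0.22 at 96 h. Against the controls of both times pooled, hsd17b8 rose at 50 µg/L at 24 h (0.45 ± 0.14, adjusted p = 0.0129) as well as at 96 h (0.48 ± 0.13, adjusted p = 0.0045).

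In mammals HSD17B10 is a mitochondrial dehydrogenase of isoleucine breakdown and also a subunit of mitochondrial RNase P. The zebrafish gene hsd17b10 rose on probe 5456817 at 50 µg/L and 24 h, by 0.45 ± 0.14 (limma, adjusted p = 0.0257). That probe ran from -0.89 through -0.20 to 0.19 in the controls and from -0.15 through 0.27 to 0.54 at 50 µg/L, where 4 of 6 arrays lay above the highest control. The call ended on leaving out control replicate 2, at 0.35 (adjusted p = 0.0844), or replicate 2, 3 or 6 at 50 µg/L, at 0.38 to 0.43. The second probe, 5468582, was higher by 0.48 ± 0.18 (adjusted p = 0.0653). On the arrays that remain without the low-signal ones, both probes passed, at 0.52 ± 0.17 (adjusted p = 0.0491) and 0.64 ± 0.20 (adjusted p = 0.0361). At 96 h, on all arrays, both were near 0, at -0.03 ± 0.14 and -0.13 ± 0.17. The difference between the times was -0.48 ± 0.20 and -0.61 ± 0.25, and neither passed (adjusted p = 0.36 and 0.352).

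**Figure D4:**
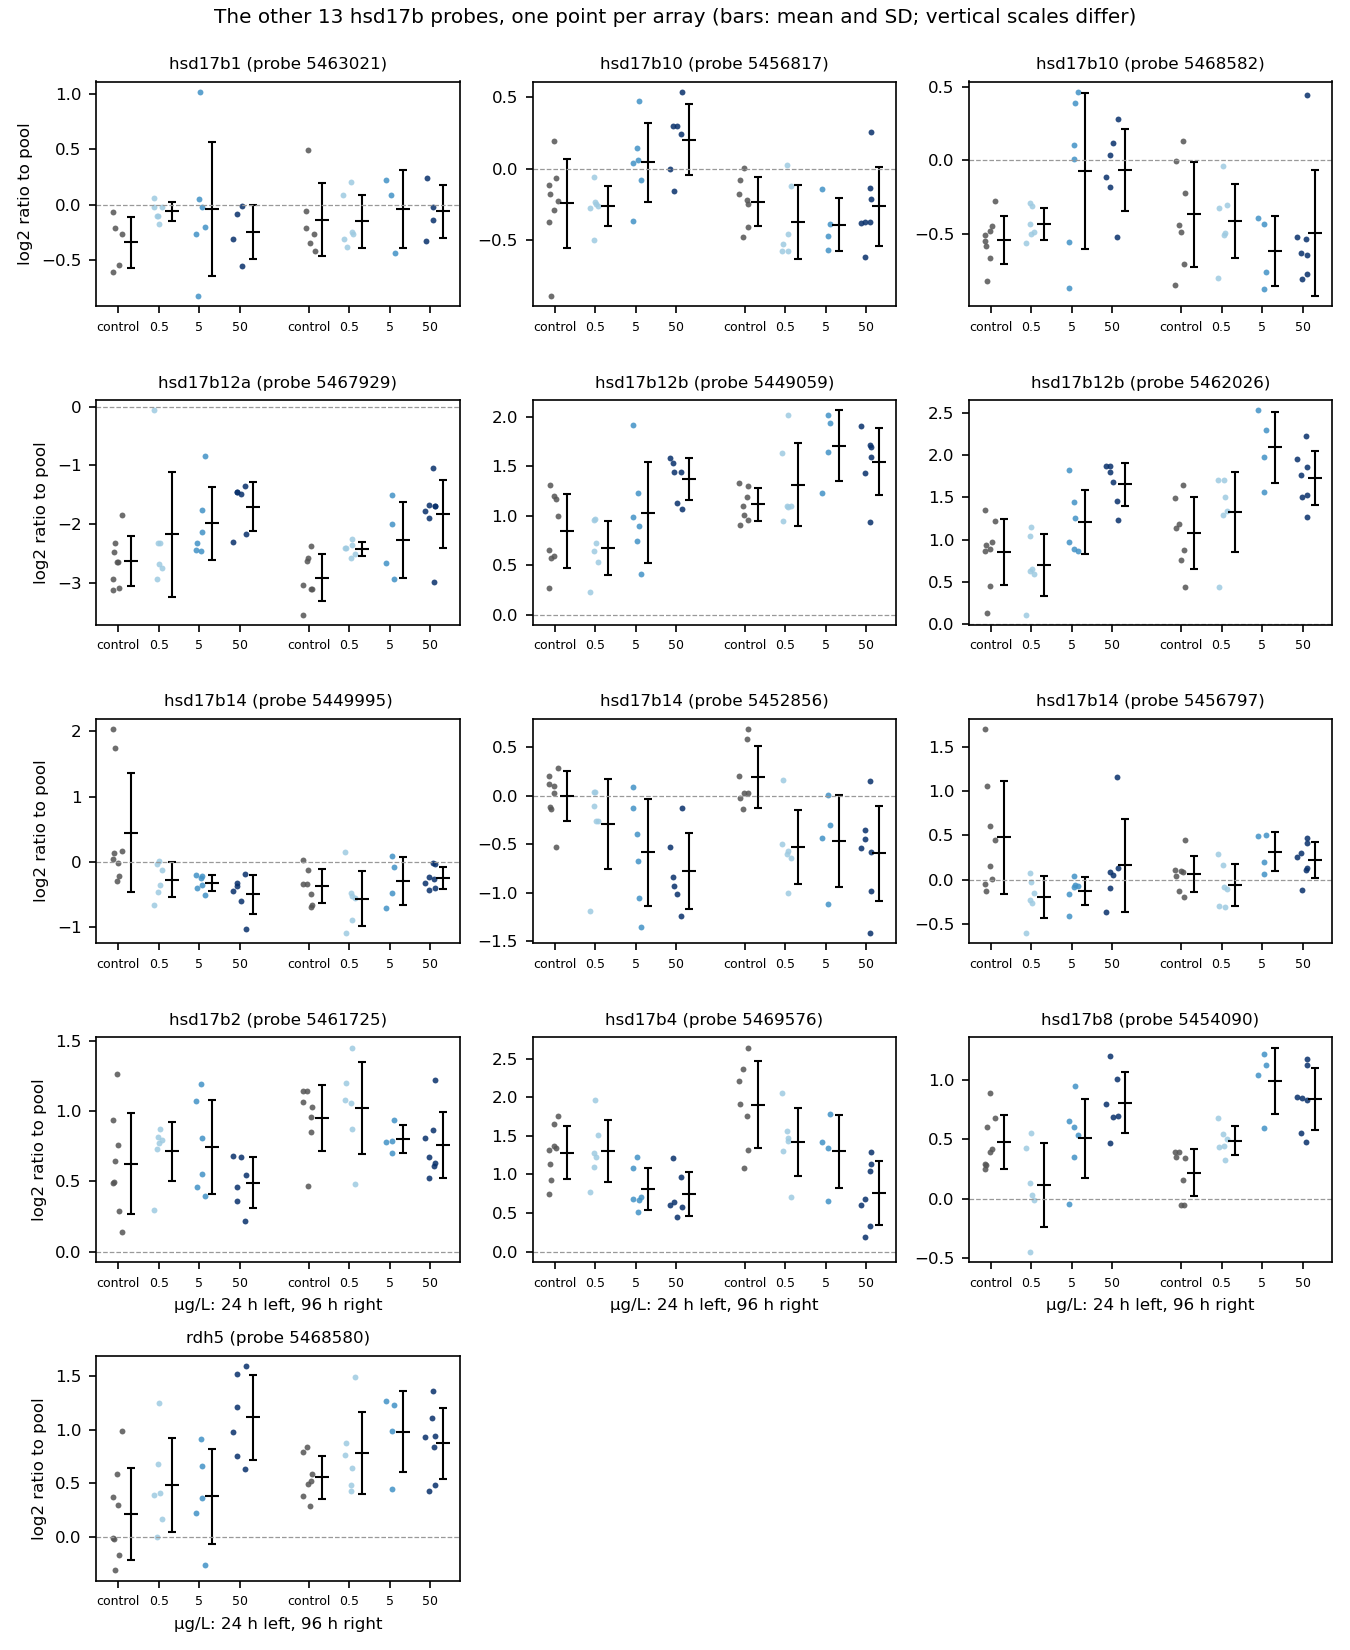
Log2 ratio of fish liver over the reference pool on each array (vertical axes, whose scales differ) for the 13 probes other than hsd17b3, by dose in µg/L at 24 h (left) and 96 h (right); horizontal marks are means and bars are 1 SD. At 96 h all 11 arrays of 5 and 50 µg/L lie above the controls for hsd17b8, while the arrays of hsd17b2 overlap in all groups.

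Comparing 50 with 0.5 µg/L on scanner values of the treated arrays, 3 probes were higher and 1, that of hsd17b3, lower at 24 h, where 9.58% of all probes passed. At 96 h 1 was lower, where 4.55% of all probes passed. The lower value of hsd17b3 is a description only, since its early fall was known when it was chosen. The higher probes at 24 h were hsd17b8 at 0.68 ± 0.17 (limma, adjusted p = 0.00681) and both probes of hsd17b12b, at 0.90 ± 0.21 for 5462026 and 0.71 ± 0.22 for 5449059. Part of each difference lay in 0.5 µg/L means below the controls. In deposited ratios the means of controls, 0.5 and 50 µg/L were 0.48, 0.11 and 0.81 for hsd17b8. They were 0.85, 0.70 and 1.65 for 5462026, and 0.84, 0.67 and 1.37 for 5449059. These means include the array with high ovary markers. With it left out, the change of hsd17b8 from control at 0.5 µg/L was -0.42 ± 0.15. Those of 5462026 and 5449059 were then -0.04 ± 0.21 and -0.08 ± 0.19. Without the array with high ovary markers, hsd17b4 also fell at 24 h (-0.74, adjusted p = 0.019), and probe 5449059 did not pass (0.62, adjusted p = 0.0857). Without the low-signal arrays hsd17b8 was at 0.63 (adjusted p = 0.0759) and 5449059 at 0.62 (adjusted p = 0.252). The rise of hsd17b12b probe 5449059 also ended on leaving out any of 8 of the 12 arrays, with changes of 0.62 to 0.72. The fall at 96 h was that of hsd17b4, -0.68 ± 0.21 (adjusted p = 0.047), a call that ended on leaving out any of 10 of the 13 arrays (-0.71 to -0.56) and with the deposited ratios in place of scanner values, where it was -0.66 (adjusted p = 0.0601).

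No member's response differed between 96 and 24 h past the threshold at any dose. Of all probes, 0.758%, 1.27% and 0.195% did at the rising doses. With no adjustment, 1, 6 and 4 of the 14 probes had a p under 0.05. The shares of all probes at that looser threshold are not given here, so these counts cannot be set against those above. The smallest adjusted p was that of hsd17b8 at 5 µg/L, whose response was higher at 96 h by 0.74 ± 0.23 (limma, adjusted p = 0.0901). Between untreated males at 96 and 24 h none of the 14 probes passed, where 1.02% of all probes did. Before adjustment 4 of the 14 had a p under 0.05, again with no share of all probes to set beside it. The probe nearest to the threshold there was hsd17b14 5449995, at -0.82 ± 0.23 (adjusted p = 0.0557).

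The enzymes around the family were read from lists of related pathways, in which the part of a list past the threshold is given with the list's median change. For reading these counts, at 50 µg/L 7.09% of all probes rose and 5.7% fell at 24 h, with a median change of 0.00, and 9.19% rose and 8.78% fell at 96 h, with a median of 0.03. Those shares without the low-signal arrays were 4.28% and 4.14% at 24 h, and 7.59% and 8.89% at 96 h. In the list of steroid reduction, oxidation and conjugation, which holds other enzymes that inactivate or carry steroids, no gene rose. Of its 21 genes 10 fell at 50 µg/L and 24 h and 11 at 96 h, with median changes of -0.36 and -0.53, and 8 and 11 fell without the low-signal arrays. The falls at the lower doses numbered 0 and 5 at 24 h, and 2 and 12 at 96 h. Of all probes, 0.295% and 3.15% fell at those doses at 24 h, and 1.25% and 5.48% at 96 h. At 5 µg/L and 96 h 7.12% of all probes rose. The plasma sex steroid carrier shbg changed by -2.13 ± 0.22 at 24 h and -2.97 ± 0.21 at 96 h, and comtd1, named for a methyltransferase domain, by -2.55 ± 0.26 and -3.69 ± 0.26. The 20-beta-hydroxysteroid dehydrogenase hsd20b2 fell at both times (-0.99 ± 0.16 and -0.53 ± 0.16), as did the sulfotransferase sult1st3 (-1.26 ± 0.22 and -1.32 ± 0.22) and the cortisol-inactivating hsd11b2 (-1.66 ± 0.31 and -2.31 ± 0.31).

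Among 11 genes of sex steroid synthesis, 1 fell at 50 µg/L at 24 h and 1 at 96 h, and none rose. They were porb, an electron donor of cytochromes P450 (-0.86 ± 0.23), at 24 h, and tspo, a mitochondrial membrane protein linked to cholesterol transport (-1.05 ± 0.25), at 96 h. In the fit without low-signal arrays porb did not pass (-0.59 ± 0.28). The median changes of that list were -0.04 and -0.07. The aromatase genes cyp19a1a and cyp19a1b changed by -0.26 ± 0.17 and 0.22 ± 0.21 at 24 h, and neither passed.

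**Figure D5:**
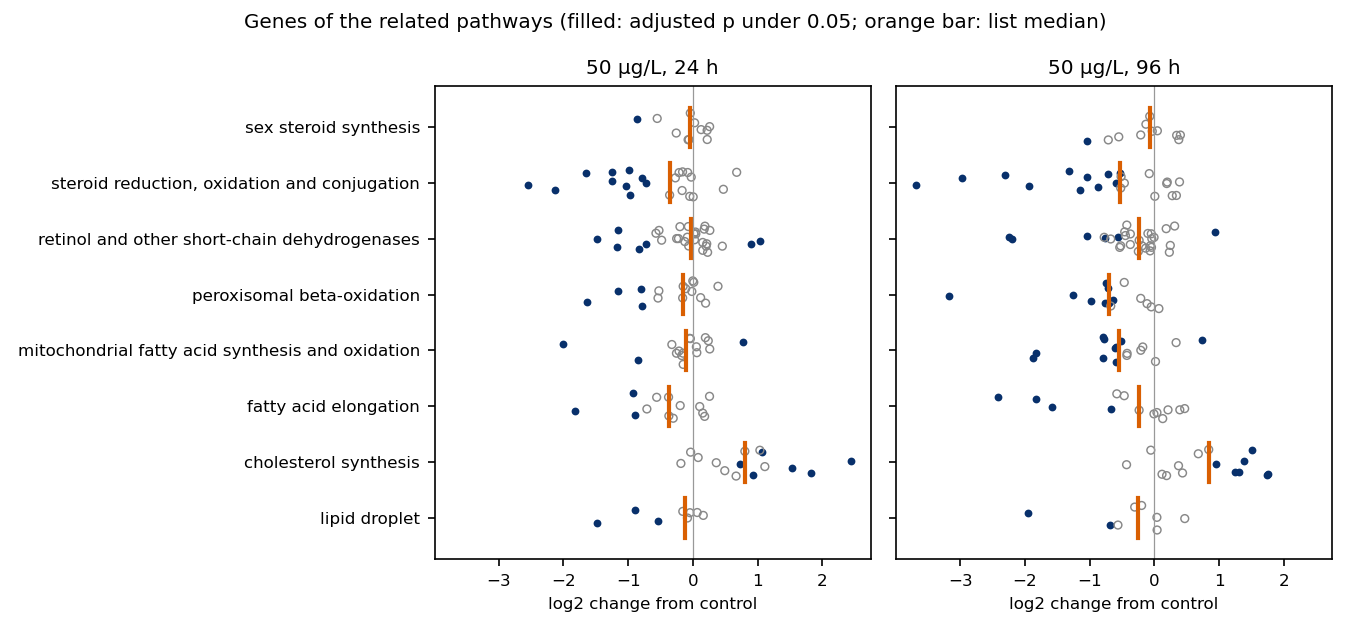
Change in log2 ratio from control at 50 µg/L (horizontal axes), at 24 h (left) and 96 h (right), for the genes of 8 related pathway lists, 1 point per gene; filled points have an adjusted p under 0.05 and orange bars are list medians. Cholesterol synthesis genes lie mostly right of 0, with medians of 0.80 and 0.84, and steroid reduction, oxidation and conjugation genes mostly left of it, with medians of -0.36 and -0.53.

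The partners of hsd17b4 in peroxisomal beta-oxidation fell at 50 µg/L for 4 of 15 genes at 24 h and 9 of 15 at 96 h, with median changes of -0.15 and -0.69, and none rose. With the low-signal arrays left out 4 and 11 fell. The acyl-CoA synthetase and transporter slc27a2a fell at both times (-1.63 ± 0.32 and -3.18 ± 0.31), as did phyh, of phytanate oxidation (-0.79 ± 0.19 and -0.98 ± 0.19), and acaa1, a peroxisomal thiolase (-0.80 ± 0.19 and -0.74 ± 0.19). The reductase decr2 fell at 24 h (-1.16 ± 0.27), and the carnitine acyltransferase crot at 96 h (-1.26 ± 0.27).

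Around hsd17b8 and hsd17b10, in mitochondrial fatty acid synthesis and oxidation, 1 of 16 tested genes rose at each time and 2 fell at 24 h and 9 at 96 h, with median changes of -0.10 and -0.55. Leaving out the low-signal arrays left 1 fall and no rise at 24 h, and 9 falls and 1 rise at 96 h. The carnitine palmitoyltransferase cpt1b fell at both times (-2.01 ± 0.24 and -1.87 ± 0.23), as did acat1, a mitochondrial thiolase (-0.84 ± 0.27 and -1.84 ± 0.26). At 96 h echs1 (-0.60 ± 0.14) and acads (-0.80 ± 0.19), both of short-chain oxidation, fell as well. The gene that rose was trmt10c, whose product in mammals is the partner of HSD17B10 in mitochondrial RNase P, by 0.78 ± 0.19 and 0.74 ± 0.19. At 24 h, without the low-signal arrays, trmt10c (0.62 ± 0.21) and acat1 (-0.60 ± 0.32) did not pass.

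The other enzymes of fatty acid elongation, the cycle in which hsd17b12a and hsd17b12b belong, fell where they passed at 50 µg/L, 3 of 13 at 24 h and 4 at 96 h, with median changes of -0.37 and -0.23. At 5 µg/L and 96 h 3 fell and 1, elovl4a, an elongase, rose (0.86 ± 0.17). Leaving out low-signal arrays, 3 fell at 24 h, and 4 fell and 1 rose at 96 h. The elongase elovl6 fell at both times (-1.82 ± 0.33 and -2.42 ± 0.33), as did hacd2, a dehydratase of the same cycle (-0.93 ± 0.20 and -1.82 ± 0.20). At 24 h elovl1a also fell (-0.89 ± 0.24), and at 96 h elovl8b (-1.58 ± 0.37) and hacd3 (-0.66 ± 0.21) did.

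In cholesterol synthesis, the pathway in which the unmeasured hsd17b7 acts, 6 of 15 genes rose at 24 h and 7 at 96 h at 50 µg/L, 10 rose at 5 µg/L and 96 h, and none fell. Of these 15, only 2 rose at 50 µg/L and 24 h once the low-signal arrays were left out, and 8 at 96 h, and at 24 h msmo1 (1.44 ± 0.57) and dhcr7 (0.80 ± 0.40) were among those that did not pass. The synthase hmgcs1 rose by 2.44 ± 0.41 and 1.76 ± 0.41, and mvda, a decarboxylase of the same pathway, by 1.82 ± 0.34 and 1.30 ± 0.34. The reductase dhcr7 rose by 1.07 ± 0.33 and 1.39 ± 0.32. The oxidase msmo1 rose by 1.53 ± 0.49 and 1.51 ± 0.48, and nsdhl, a sterol dehydrogenase, by 0.72 ± 0.23 and 0.96 ± 0.23. The demethylase cyp51 rose at 96 h, by 1.74 ± 0.42.

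Among 30 tested genes for retinol and other short-chain dehydrogenases, the structural class of most of the family, the highest dose gave 2 rises and 5 falls at 24 h and 1 rise and 5 falls at 96 h, and rdh5 was 1 of the 24 h rises. The 96 h count, 6 of 30, was near the 18% of all probes that passed. With the low-signal arrays left out the class gave 1 rise and 4 falls at 24 h, and 1 rise and 7 falls at 96 h. The other was rdh10b, a retinol dehydrogenase, which also rose at 96 h (1.03 ± 0.19 and 0.94 ± 0.19). At both times sdr16c5b (-1.48 ± 0.22 and -0.77 ± 0.22), rdh1 (-1.17 ± 0.26 and -2.20 ± 0.27) and decr1, a dienoyl-CoA reductase (-0.83 ± 0.28 and -2.25 ± 0.27), fell. Of 8 lipid droplet genes, 3 fell at 24 h and 2 at 96 h, with dgat2, which makes triacylglycerol, at -1.48 ± 0.20 and -1.96 ± 0.20, and dgat1a at -0.53 ± 0.19 and -0.69 ± 0.19. The droplet protein cidec fell at 24 h (-0.89 ± 0.29). On the remaining arrays, low-signal ones aside, dgat2 alone fell at 24 h, and both dgat genes at 96 h.

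The genes whose ratio followed that of hsd17b3 most closely over the 50 arrays were found among 8927 named genes by Pearson's r. The highest were zgc:64106 at 0.85, dgat2 at 0.85, zgc:77439 at 0.85, ugt5a2, a glucuronosyltransferase, at 0.84, and agxtb, an aminotransferase, at 0.84. The lowest were vtg7 at -0.87, pax9, a transcription factor, at -0.87, vtg3 at -0.86, the estrogen receptor esr1 at -0.86, and nots, the liver protease nothepsin, at -0.85. These values run over arrays that share dose groups, so any gene with a strong dose response scores high or low. Taken on deviations from the group means, the highest were becn1 and pptc7a at 0.61, zgc:110006 at 0.60, apobec2a at 0.59 and ppfibp2b at 0.57, and none of the genes that were highest or lowest over all arrays was among them. Of the other 13 members, hsd17b14 probe 5452856 had the highest r with hsd17b3 over arrays, 0.64, and within groups 0.31.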

How the data were processed

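Liver RNA of 50 adult male zebrafish samples was measured on two-colour arrays with Cy5 for the fish and Cy3 for the reference on every array, so a dye effect cancels only in differences between groups. The deposited log2 ratios are the authors' normalized values of fish over reference. The way they were normalized is not given in the sources used here, and they followed the raw ratio of each treated array at r = 0.903 to 0.989. The deposited scanner files hold mean intensity and background per spot and the percent of spot pixels above background, per the file headers, and were used for the 35 treated arrays. Scanner values of the 15 controls were not analysed here. Of 23232 probes, 11724 have 1 gene symbol in the platform annotation and 11508 have none. Of 10121 symbols, 6997 were updated through synonyms in the RefSeq gene table.

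After median centring of every array, the 8 groups entered a single limma fit (limma 3.58.1, R 4.3.3). Probes needed values on 3 or more arrays in all groups, and Benjamini-Hochberg adjustment ran over the 22046 that had them. A change was called at an adjusted p under 0.05. The comparison of 50 with 0.5 µg/L used background-corrected (normexp, offset 50) and loess-normalized intensities of the treated arrays, with no median centring. A spot counted as above background where over 50 percent of its pixels were. Tables and plots were made with Python 3.11.15, pandas 2.3.3 and matplotlib 3.10.9. The fits were tested on simulated data.

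The members, gene lists and tests were chosen with earlier results of these data known. All members were named, and from each pathway list up to 4 genes with the smallest p at 50 µg/L at each time. The aromatases and the marker genes were named after their values were seen. In a list, a gene with several probes stands by its brightest in the reference channel. The labels call the samples biological replicates, and the number of arrays limits the precision. The sample titles do not say whether replicate numbers pair the samples, and no such pairing was seen in deviations from the group means. Over 157 same-numbered pairs of arrays from different groups these correlated at -0.37 to 0.57, with a median of -0.02. The correlation was over 0.1 in 36 of these pairs. Pairs with different numbers had a median of -0.01, and 2 of 50 arrays correlated best with their own number. Alternatives were other scalings, filters, weights and control sets, a replicate block, and leaving out arrays.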

Additional observations from a re-analysis of the deposited data

Results flagged for a closer look

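Each of the 14 probes was examined in every group of 4 to 10 arrays for 1 array far from the rest, by Dixon's ratio of gap to range, and 6 of 111 groups held such an array. Chance gives about 1 in 20. Of the 6, 3 came from replicate 2 of 0.5 µg/L at 24 h, the array with high ovary markers. On it hsd17b12a lay at -0.063 while the other 5 arrays lay between -2.93 and -2.32, and hsd17b14 probe 5452856 lay at -1.19, below the -0.26 to 0.04 of the rest. On the same array hsd17b2 lay at 0.30, below the 0.73 to 0.88 of the rest.

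Low-signal arrays held 2 more. Replicate 4 of 50 µg/L at 96 h had hsd17b10 probe 5468582 at 0.45, above the -0.81 to -0.52 of the other arrays. Replicate 5 of 50 µg/L at 24 h had hsd17b14 probe 5456797 at 1.16, above the -0.37 to 0.13 of the others. The last was replicate 4 of 0.5 µg/L at 96 h, with hsd17b12b probe 5462026 at 0.44, below the 1.29 to 1.70 of the rest.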

How the results depend on the processing

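Of 24 changes of members past the threshold over the 12 comparisons, 12 stayed past it in every alternative and every fit that left out 1 array, and none reversed. Of the 12, 6 were those of hsd17b3, which was chosen with its fall known and carries no weight here. The others were hsd17b4 at 50 µg/L and hsd17b8 at 5 and 50 µg/L at 96 h, hsd17b12a at 50 µg/L and hsd17b12b probe 5462026 at 5 µg/L at 96 h, and that probe between doses at 24 h. Of 144 changes short of the threshold, 19 passed in some alternative. With array weights the counts of probes called were 11 at 50 µg/L and 24 h (7 in the fit reported), 2 at 0.5 µg/L and 96 h (1), 5 at 5 µg/L and 96 h (3) and 8 for 50 against 0.5 µg/L at 24 h (4). The all-probe counts with weights were 342 against 111, 2368 against 1340 and 4113 against 2820 at the rising doses at 24 h, 1618 against 716 and 3107 against 2778 for 0.5 and 5 µg/L at 96 h, 3492 against 2111 for the dose comparison at 24 h, and 444 against 167 and 260 against 43 for the time differences at 0.5 and 50 µg/L. Without the low-signal arrays the counts were 4, 2 and 2 for 50 µg/L at 24 h, 0.5 µg/L at 96 h and the dose comparison at 24 h, and all probes gave 1857 at 50 µg/L and 24 h against 2820, 758 at 0.5 µg/L and 96 h, 1383 for that dose comparison and 148 for the time difference at 50 µg/L. With only the arrays of the contrast 1 probe was called at 5 µg/L and 24 h (2), where all probes gave 1223 against 1340. All probes gave 44 at 0.5 µg/L and 24 h and 74 between controls (224) in that setting. With values on all arrays required, 1 probe differed between controls (0), where 261 of all 14677 probes so filtered did. Quantile normalization gave 125 of all probes between controls, and pooled controls gave 2226 of all probes at 5 µg/L and 24 h.

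The fall of hsd17b4 between doses at 96 h, the only call there, gave a count of 0 with the replicate block, only the arrays of the contrast, deposited ratios, no background correction, or dim spots left out. A replicate block was fitted although no pairing by number was seen. With it the counts at the rising doses were 0, 3 and 7 at 24 h and 1, 3 and 6 at 96 h. They were 3 between doses at 24 h, and 0 for the time differences and the controls. All probes then gave 92, 1129 and 2464 at 24 h, 539, 2405 and 3828 at 96 h, and 1967 between doses at 24 h. Leaving out 1 array gave counts of 0 to 0, 1 to 4 and 5 to 8 at the rising doses at 24 h, 1 to 2, 3 to 4 and 5 to 7 at 96 h, 3 to 5 and 0 to 1 between doses, 0 to 2 between controls, and 0 to 0, 0 to 1 and 0 to 0 for the time differences. All probes then gave 63 to 178, 1067 to 1378 and 2338 to 2912 at 24 h, 415 to 942, 2128 to 2890 and 3298 to 4255 at 96 h, and 1772 to 2504 and 824 to 1066 between doses. Between controls they gave 98 to 395, and for the time differences 123 to 243, 161 to 345 and 6 to 135. With the replicate block all probes gave 123, 250 and 33 for the time differences and 153 between controls. In such fits hsd17b12a at 50 µg/L and 24 h lost its call in 6, with adjusted p up to 0.0667. The cause of these changes was not tested. A scan or slide block was not run because the files name none. Weak signal limits hsd17b1 most.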
